A study of Rattus norvegicus with 12 samples.

Results

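Gpr83, Rgs9, Ucn2, Tmprss11f, Mab21l3, Tbx4 and Glipr2 are 7 genes that were chosen by measured values: they stood low in the spiral ganglion of hearing rats and showed some of the largest relative rises in deafened rats, or in the older deafened rats. All 7 were found among the 21829 gene symbols of the authors' normalized table, and each matched 1 gene ID of the count table, which holds 32883. Since the contrasts of deafened with hearing rats, and of older with younger deafened rats, chose the genes, their values there are given as a description with no test. The contrast of the 2 ages in hearing rats is not named in the choice, although a low level in hearing rats is. It is tested for the genes other than Ucn2, which passed the filter on low counts through the deafened groups alone.

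RNA came from the entire spiral ganglion of rats of the Sprague-Dawley strain. By the protocol it was dissected free of the organ of Corti, the spiral ligament and bone, though markers of bone and cartilage were measured, as given below. The tissue holds the auditory neurons with their glia, vessels, immune cells and connective tissue. Deafened rats had been given kanamycin intraperitoneally, at 400 mg/kg once a day starting at P8 and ending at P16, which kills the sensory hair cells. The hearing rats were littermates without any injection. Ganglia were collected at P32 or P60, giving hearing and deaf groups at either age, 4 groups of 3 biological replicates each. How many ganglia or animals make up a replicate is not stated in the labels. Loss of hair cells, the drug itself and the injections go together and cannot be told apart. In whole tissue, a change in the number of cells that express a gene and a change in transcript per cell cannot be told apart either.

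The 7 genes belong to separate families. Gpr83 encodes a G protein-coupled receptor of the brain and of regulatory T cells, for which the peptide PEN, cut from the precursor proSAAS, has been described as a ligand. Rgs9 encodes a regulator of G protein signalling that speeds the shut-off of G proteins in photoreceptors and, as a longer form, in the striatum, where it dampens dopamine and opioid receptors. It works as a complex with the G protein subunit Gnb5 and membrane anchors. Ucn2 encodes urocortin 2, a secreted peptide of the corticotropin-releasing factor (CRF) family that acts through the receptor Crhr2. Tmprss11f encodes a serine protease anchored in the membrane, of a family found mainly in surface epithelia. Mab21l3 is a member of the Mab21 family, which also holds the DNA sensor Cgas. Tbx4 encodes a T-box transcription factor known for limb and lung development. Glipr2 encodes a small Golgi-associated protein of the CAP superfamily that binds the autophagy protein Beclin 1.

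The stretches at the start of the 2 genes with the largest relative differences, Ucn2 and Gpr83, are shown because they are the only members among the 7 whose window held one of the 3 motifs searched. Each runs 5′ to 3′ on the gene's strand from 250 bases before to 50 bases after the RefSeq start in the GRCr8 build. Capitals mark TGAGTCA in Ucn2, a form of the AP-1 motif TGANTCA that Fos, Jun and Atf proteins bind, and the TATA box TATAAA in Gpr83.
Ucn2, chr8:118515861-118516160, + strand: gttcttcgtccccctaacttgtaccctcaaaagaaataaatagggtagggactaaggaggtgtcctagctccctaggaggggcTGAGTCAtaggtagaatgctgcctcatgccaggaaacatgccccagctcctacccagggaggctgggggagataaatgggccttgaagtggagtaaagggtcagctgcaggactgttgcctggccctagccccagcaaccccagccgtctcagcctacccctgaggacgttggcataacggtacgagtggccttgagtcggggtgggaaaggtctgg
Gpr83, chr8:19974745-19975044, + strand: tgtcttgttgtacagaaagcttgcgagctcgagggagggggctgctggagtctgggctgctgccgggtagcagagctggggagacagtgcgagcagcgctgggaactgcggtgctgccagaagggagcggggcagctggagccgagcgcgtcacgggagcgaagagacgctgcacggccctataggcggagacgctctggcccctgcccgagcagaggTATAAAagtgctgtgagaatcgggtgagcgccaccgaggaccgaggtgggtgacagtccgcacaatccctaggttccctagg
The AP-1 match in Ucn2 lay 167 to 161 bases before the start, and the TATA match in Gpr83 lay 32 to 27 bases before it. Both strands were searched, and the motifs do not overlap each other. TGANTCA was present in 7.33% of the 33469 promoter windows of that table and in 1 of the 7 genes. The cAMP response element TGACGTCA was present in 1.83% of windows and in none of the 7, and TATAAA in 14.2% of windows and in 1 of the 7. TATAAA was added to the search after its match in Gpr83 had been seen. The windows of Glipr2, Tbx4, Rgs9 and Gpr83 were rich in G and C (68%, 70%, 66.3% and 64.7%), those of Ucn2 and Mab21l3 held 57% and 55.3%, and that of Tmprss11f held 48%, against a median of 51.7% over all windows. A match is a description of letters in the window and not a bound site.

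The 12 libraries held 15646405 to 43453272 counted reads. Levels are given as CPM, reads of a gene scaled to a common library total and adjusted by TMM factors, where 1 read was worth 0.0223 to 0.0614 CPM. The library P32 hearing replicate 3 stood apart: its median correlation with the others across genes on log2 CPM was 0.949, against 0.977 or more for each other library, and the authors' normalized table leaves it out. Values of the 7 genes that rest on P32 hearing rats are also given without it. There were 11 marker lists for cell types. The sum of neuronal markers was lower in deafened rats, at 6304 to 7713 and 6573 to 7403 CPM in the P32 and P60 hearing libraries and 3908 to 4149 and 3591 to 4246 CPM in the deafened ones. The mean of Prph was not lower at P60, at 19.2 CPM in hearing and 19.9 CPM in deaf rats. By edgeR's quasi-likelihood test 1 of 8 neuronal markers fell at P32 and 3 at P60 (4 and 6 without P32 hearing replicate 3). The share of all 17789 tested genes that rose was 0.225% at P32 and 2.24% at P60, and 0.0899% and 1.01% fell. In the fit without P32 hearing replicate 3 calls were more frequent throughout, with 1.55% of all genes rising and 2.0% falling at P32, and 8.84% and 9.55% at P60. The sum of macrophage markers was higher, at 265 to 354 and 276 to 344 CPM in hearing animals and 412 to 421 and 511 to 568 CPM in the deafened ones. Of these markers 1 of 9 rose at P32 and 6 of 9 at P60 (8 and 8 without P32 hearing replicate 3). The mean of Cd163 was lower in deaf rats at P60, at 17.6 CPM in hearing and 16.1 CPM in deaf rats. Nonmyelinating glia markers summed to 2037 to 2448 CPM (P32 hearing), 2464 to 2708 (P32 deaf), 1872 to 2089 (P60 hearing) and 3958 to 4694 CPM (P60 deaf), with 0 of 6 rising at P32 and 2 of 6, Gfap and Fabp7, at P60 (4 rose and 1, L1cam, fell without P32 hearing replicate 3). This sum consists mostly of Gfap, at 1398 and 3385 CPM in P60 hearing and deaf rats. The means of Ngfr, Scn7a and Fabp7 were also higher in P60 deaf rats. Ncam1 stood at 191 and 193 CPM, and L1cam was lower, at 117 and 78.5 CPM. Markers of myelinating Schwann cells, which remained abundant at 18570 to 32570 CPM, gave 0 of 8 past the threshold at both ages (1, Ncmap, fell at P60 without P32 hearing replicate 3). Osteoblast markers summed to 205 to 484 and 119 to 181 CPM in P32 and P60 hearing libraries and to 260 to 281 and 111 to 141 CPM in the deafened ones. Cartilage markers summed to 384 to 539 and 298 to 311 CPM, and to 430 to 489 and 155 to 241 CPM. Both sums were highest in P32 hearing replicate 3. None of the 4 osteoblast markers passed at either age, and 1 of 4 cartilage markers, Acan, fell at P60. Hair cell markers summed to 7.25 to 8.95 and 7.54 to 9.57 CPM in P32 and P60 hearing libraries. They summed to 5.83 to 11.8 and 5.40 to 9.75 CPM in the deafened ones, and none of the 4 tested passed at either age. None of 6 fibroblast markers passed at either age (1 rose at P32 and 3 at P60 without P32 hearing replicate 3). The part of these cell types in the levels of the 7 genes was not tested.

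The label of near-silent genes that switch on after deafening described Ucn2 best, with 2 and 4 reads in the P32 and P60 hearing groups. Gpr83 and Tmprss11f were low rather than silent, with 75 and 63 and with 32 and 40 reads there, and both were detected in every hearing library. The label comes from the values that chose the genes, so how well it describes them is no test. Gpr83, Ucn2 and Tmprss11f had at most 1.22 CPM in any hearing library and were higher in every deafened library than in every hearing library of the same age. Rgs9, Mab21l3 and Glipr2 were measurable in hearing rats, at 1.69 to 8.70 CPM. Tbx4 was low in hearing and in deafened rats at P32 and stood higher in both at P60. All 7 passed the filter on low counts, but Ucn2 reached the filter's minimum of 0.425 CPM in 0 of the 6 hearing libraries and so entered through the deafened groups alone.

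Gpr83 (ENSRNOG00000030318), the receptor, had 0.944, 1.22 and 0.327 CPM in the P32 hearing libraries and 6.37, 6.43 and 7.50 CPM in the P32 deaf libraries. At P60 it had 0.840, 0.831 and 0.682 CPM in hearing animals and 25.9, 50.6 and 44.7 CPM in the deafened ones. Every deafened library lay above every hearing library, and every P60 deaf library lay above every P32 deaf library, while the hearing groups of the 2 ages overlapped through P32 hearing replicate 3. The group means were 0.831 ± 0.458, 6.76 ± 0.635, 0.784 ± 0.0888 and 40.4 ± 12.9 CPM for hearing and deaf at P32, then hearing and deaf at P60 (SD, n = 3). The log2 difference of deafened from hearing rats was 2.93 ± 0.34 (SE) at P32 and 5.67 ± 0.36 at P60, or 7.60-fold and 51.0-fold. It ranked 3rd at P32 and 2nd at P60 among the 17789 genes tested, in the contrasts that chose it. With P32 hearing replicate 3 left out, the P32 value was 6.06-fold.

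Ucn2 (ENSRNOG00000020655), the CRF-family peptide, was close to the limit of detection in hearing rats. The P32 hearing libraries held 1, 0 and 1 reads and the P60 hearing libraries 0, 1 and 3 reads, so the level of each was at or under the 3 reads that a count of 0 allows. The P32 deaf libraries held 18, 42 and 17 reads (0.849, 0.938 and 0.732 CPM) and the P60 deaf libraries 53, 152 and 79 reads (2.41, 4.99 and 4.85 CPM). No hearing library came near a deafened one, and the P60 deaf libraries all lay above the P32 deaf ones. Summed over libraries and scaled, reads were 34.9 times as frequent in deafened as in hearing rats at P32 (95% interval 9.34 to 293, 77 against 2 reads). They were 82.3 times as frequent at P60 (31.8 to 304, 284 against 4 reads). These exact intervals, from the binomial share of the reads, cover counting error only. They leave out the spread between libraries and the choice of the gene by these contrasts, so they are no test of a difference. The fitted fold depends on the few hearing reads: it was 28.7 at P32 (17.4 without P32 hearing replicate 2, which held 0 reads, and 41.1 without replicate 3) and 74.2 at P60, and 183 at P60 with P60 hearing replicate 3, which held 3 of the 4 reads, left out. Among all genes tested Ucn2 had the highest fitted fold at both ages. As it was chosen by these contrasts and its hearing level rests on few reads, nothing is read from that rank.

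Tmprss11f (ENSRNOG00000002005), the membrane serine protease, had 0.302, 0.306 and 0.709 CPM in P32 hearing and 1.18, 2.12 and 2.46 CPM in P32 deaf rats. At P60 it had 0.630, 0.277 and 0.682 CPM in hearing animals and 4.86, 7.25 and 8.65 CPM in the deafened ones. The deafened libraries lay above the hearing ones at both ages, and the P60 deaf libraries above the P32 deaf ones, with 8 to 16 reads behind each hearing value. The log2 difference was 2.23 ± 0.43 (SE) at P32, which is 4.68-fold, or 6.26-fold without P32 hearing replicate 3. It was 3.74 ± 0.41 at P60, which is 13.3-fold.

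Rgs9 (ENSRNOG00000003800), the regulator of G protein signalling, differed by nearly the same factor at both ages. It had 2.83, 3.39 and 1.69 CPM in P32 hearing and 15.0, 12.8 and 11.6 CPM in P32 deaf rats, and 3.61, 3.88 and 2.98 CPM in P60 hearing and 15.5, 17.7 and 17.2 CPM in P60 deaf rats. The deafened libraries lay wholly above the hearing ones at each age. The fold was 4.88 at P32 (log2 2.29 ± 0.22 SE; 4.15-fold without P32 hearing replicate 3) and 4.80 at P60 (log2 2.26 ± 0.21). The P60 deaf group stood only 1.28-fold above the P32 deaf group, against 5.98-fold for Gpr83, 4.79-fold for Ucn2 and 3.56-fold for Tmprss11f.

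Mab21l3 (ENSRNOG00000016044), the Mab21 family gene, had its larger difference at the younger age. It had 4.34, 5.97 and 1.69 CPM in P32 hearing and 15.0, 13.9 and 15.6 CPM in P32 deaf rats, a 3.61-fold difference that was 2.81-fold without P32 hearing replicate 3, the lowest library. At P60 it had 8.70, 6.52 and 7.37 CPM in hearing animals and 11.8, 12.9 and 14.9 CPM in the deafened ones, which is 1.76-fold (log2 0.81 ± 0.30 SE). The deafened group was at 14.8 ± 0.850 CPM at P32 and 13.2 ± 1.55 CPM at P60 and its libraries overlapped between the ages (not without P32 deaf replicate 2 or P60 deaf replicate 3, where those of P60 lay lower), while the hearing group went from 4.0 ± 2.16 to 7.53 ± 1.10 CPM.

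Glipr2 (ENSRNOG00000014838), the Golgi-associated CAP protein, had groups that did not overlap at P60 and that overlapped at P32 through 1 library. It had 2.53, 3.78 and 5.02 CPM in P32 hearing and 4.53, 5.02 and 4.70 CPM in P32 deaf rats, a 1.27-fold difference. Without P32 hearing replicate 3, the highest hearing library, the P32 groups did not overlap and the difference was 1.48-fold. At P60 it had 2.81, 2.86 and 2.64 CPM in hearing animals and 9.99, 12.1 and 13.4 CPM in the deafened ones, 4.26-fold apart (log2 2.09 ± 0.22 SE) with no overlap.

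Tbx4 (ENSRNOG00000003544), the T-box factor, stood higher at P60 than at P32 in hearing and in deafened rats. It had 0.302, 0.417 and 0.273 CPM in P32 hearing and 0.566, 0.246 and 0.259 CPM in P32 deaf rats, resting on 28 and 29 reads, with groups that overlapped through P32 deaf replicate 1 and a log2 difference of -0.01 ± 0.36 (SE), or -0.14 without P32 hearing replicate 3. At P60 it had 0.840, 1.26 and 1.15 CPM in hearing animals and 1.82, 1.97 and 1.53 CPM in the deafened ones, 1.64-fold apart (log2 0.71 ± 0.29) with no overlap. The fold between P60 and P32 was 3.17 in hearing and 5.22 in deafened rats.

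**Figure D1:**
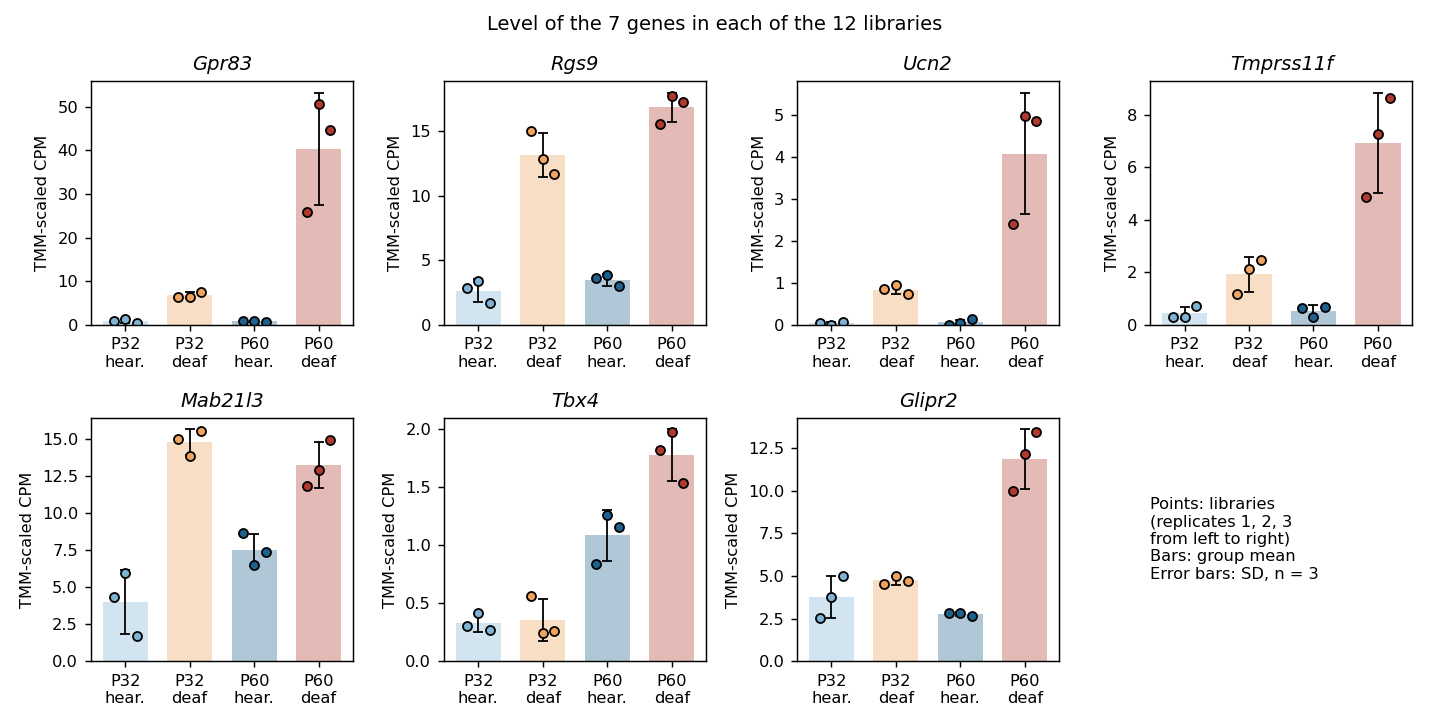
TMM-scaled CPM of each gene (vertical axis from 0, own scale per gene) in the 3 libraries of each group, with bars for the mean and error bars for the SD. Gpr83, Ucn2, Tmprss11f and Glipr2 are highest in P60 deaf rats, Rgs9 and Mab21l3 stand high in both deafened groups, and Tbx4 is higher at P60 in both conditions.

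Within the P60 deaf group, replicate 1 was the lowest of the 3 libraries for 6 of the 7 genes, Tbx4 being the exception. For Gpr83 it stood at 25.9 CPM against 44.7 and 50.6 CPM, and for Ucn2 at 2.41 against 4.85 and 4.99 CPM. With that library left out, Gpr83 was 59.6-fold higher in deafened rats at P60.

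Set side by side, the differences of deafened from hearing rats gave 3 profiles. They were larger at P60 than at P32 by 2.75 on the log2 scale for Gpr83, 1.75 for Glipr2, 1.51 for Tmprss11f, 1.37 for Ucn2 and 0.72 for Tbx4. They differed by -0.02 for Rgs9. For Mab21l3 the P60 value was the smaller one, by -1.04. Whether the effect differs between the ages was not tested for these genes, because both effects took part in choosing them. At P32, 4 of the 7 genes were past an adjusted p of 0.05 in edgeR's quasi-likelihood test and higher (Gpr83, Rgs9, Ucn2 and Mab21l3), where 0.225% of all tested genes were. At P60, 5 of the 7 were (Gpr83, Rgs9, Ucn2, Tmprss11f and Glipr2), where 2.24% of all were. In P60 against P32 deaf rats 4 of the 7 were higher (Gpr83, Ucn2, Tbx4 and Glipr2), where 0.174% of all were. The deafened libraries lay wholly above the hearing ones for 5 of the 7 genes at P32 and for all 7 at P60, where 11.3% and 17.4% of all tested genes did so. The P60 deaf libraries lay wholly above the P32 deaf ones for 6 of the 7, and 10.8% of all tested genes did so. As the choice of the genes rests on these contrasts, nothing is read from these counts, and the calls are no test of the 7 genes. Ucn2 moreover passed the filter on low counts through the deafened groups alone.

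**Figure D2:**
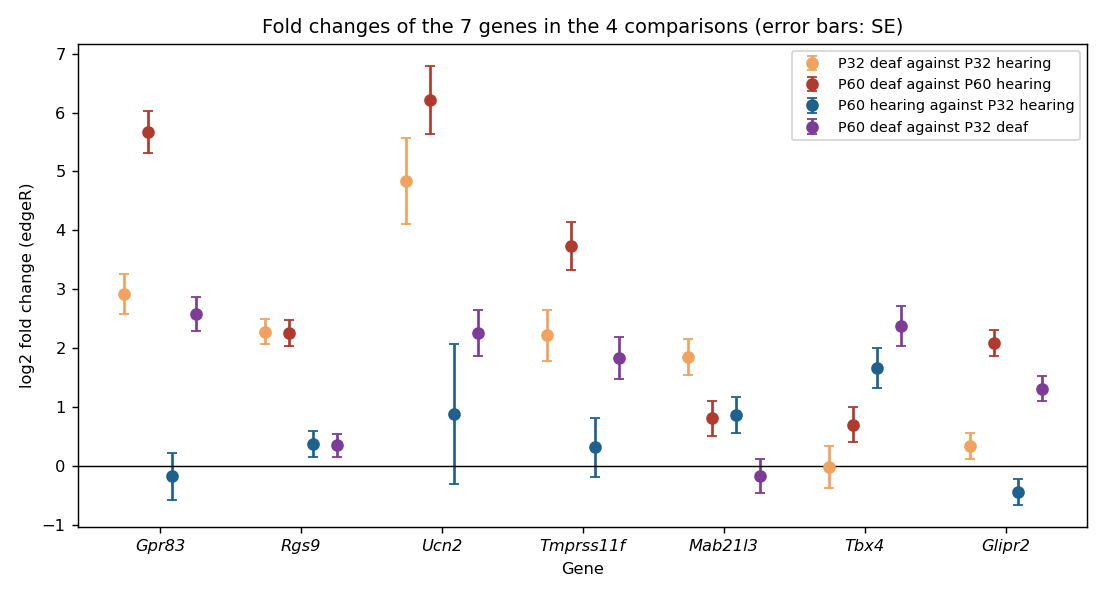
The edgeR log2 fold change of each gene (vertical axis) in the 4 comparisons, with error bars for the SE. The 2 comparisons of deafened with hearing rats are farthest apart for Gpr83, at 2.93 and 5.67, and nearly equal for Rgs9, at 2.29 and 2.26, and the comparison of the ages in hearing rats is largest for Tbx4, at 1.67.

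In hearing rats, the comparison of P60 with P32 tests whether the genes change with age without deafening. Of the 6 genes other than Ucn2, none passed an adjusted p of 0.05 by edgeR's quasi-likelihood test, and 2 (Tbx4 and Mab21l3) had an unadjusted p under 0.05. Among all 17789 genes, 0.0112% were past the adjusted threshold and higher and 0.0618% lower, 13 genes in all, with 1814 at an unadjusted p under 0.05. Tbx4 came closest, at 0.330 ± 0.0761 CPM at P32 and 1.08 ± 0.218 CPM at P60 (SD, n = 3 each; log2 1.67 ± 0.34 SE, edgeR unadjusted p = 3.83e-04, adjusted p = 0.136). Its log2 difference was the 13th highest of all tested genes in this comparison, and it was higher in 3 of 3 libraries. By DESeq2 it passed, with an adjusted p of 0.00955, and without P32 hearing replicate 3 its edgeR adjusted p was 0.144. Mab21l3 was 1.83-fold higher at P60 (edgeR unadjusted p = 0.0152, adjusted p = 0.448), and 1.44-fold without P32 hearing replicate 3. The P60 libraries lay wholly above the P32 ones for these 2 of the 7, and for 8.62% of all tested genes. The other 5 overlapped between the ages. The fitted log2 differences were -0.43 for Glipr2, -0.17 for Gpr83, 0.32 for Tmprss11f and 0.38 for Rgs9, with edgeR adjusted p from 0.448 to 0.828. The overlap turned on 1 library for 3 of them: without P32 hearing replicate 3 the P60 libraries of Gpr83 all lay lower, without P32 hearing replicate 1 so did those of Glipr2, and without P32 hearing replicate 2 or P60 hearing replicate 3 those of Rgs9 all lay higher. For Ucn2, 4 against 2 reads cannot show a difference at this depth (ratio of reads 2.03, 95% interval 0.290 to 22.4). Without P32 hearing replicate 3 none of the 6 passed either (edgeR adjusted p from 0.144 for Tbx4 to 0.969 for Rgs9). The sign for Gpr83 changed when P32 hearing replicate 2 was left out (0.24).

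The genes that work with each of the 7, or are related to it, were taken from 8 lists. Over all lists 90 genes were tested, and their log2 differences of deafened from hearing rats ran from -1.72 to 1.0 at P32 and from -1.13 to 1.68 at P60. These spans lie below the values of Gpr83, Rgs9, Ucn2 and Tmprss11f at both ages. As the 7 genes were chosen for large rises and the related genes were not, nothing is read from that gap. At P32, 1 of the 90 genes passed, where 0.225% of all tested genes were higher and 0.0899% lower. At P60, 7 passed, 5 higher and 2 lower, where 2.24% and 1.01% of all were. The lists were chosen with earlier results of these data known, so nothing is read from these counts. The adjusted p of the related genes named below carry the same limit.

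For Gpr83, of 11 tested genes of its ligands, ligand processing, coupling and receptor relatives, none passed at P32. At P60 a single one rose, Prlhr, the receptor for prolactin-releasing peptide, from 1.32 ± 0.245 to 3.61 ± 1.99 CPM (2.75-fold, edgeR adjusted p = 0.0432). The median log2 difference was -0.05 at P60, against 0.02 for all tested genes. Prlhr no longer passed in 9 of 18 other fits, each of which left out 1 library (P32 hearing replicate 1, or any of the P32 deaf and P60 hearing libraries, or P60 deaf replicate 1 or 2). Without P32 hearing replicate 3, 2 of the 11 rose and 1 fell, in a fit where 8.84% and 9.55% of all genes did. Fam237a, which encodes another described ligand of the receptor, had 9 to 11 reads per group and was too low to test.

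For Rgs9, 0 of 17 tested partners and close relatives passed at P32. At P60, 1 rose and 1 fell. Drd1, the D1 dopamine receptor, stood at 0.577 ± 0.198 CPM in hearing animals and 1.79 ± 0.285 CPM in the deafened ones (3.04-fold, edgeR adjusted p = 0.0121). Rgs7, a neuronal relative of Rgs9, fell from 24.3 ± 2.23 to 15.4 ± 1.09 CPM (1.58-fold, edgeR adjusted p = 0.0178). Gnb5, the G protein subunit that stabilises Rgs9, had 46.8 ± 4.37 CPM in hearing animals and 38.7 ± 2.98 CPM in the deafened ones at P60 (edgeR adjusted p = 0.279; 0.0263 without P32 hearing replicate 3), and its mean was not higher where that of Rgs9 was. The membrane anchor Rgs9bp held 7 to 9 reads per group and was not tested. Among 14 other RGS genes, Rgs16 (21.0 ± 3.20 to 43.7 ± 5.72 CPM, 2.08-fold, edgeR adjusted p = 0.009) and Rgs1, an RGS gene of lymphoid and myeloid cells (1.39 ± 0.258 to 4.50 ± 0.886 CPM, 3.20-fold, edgeR adjusted p = 0.0213), rose at P60. None of the 14 passed at P32. In hearing rats Rgs4 fell with age, from 132 ± 36.2 to 46.7 ± 4.76 CPM (2.83-fold, edgeR adjusted p = 0.0163; 0.00191 without P32 hearing replicate 3). Drd1 and Rgs16 did not pass when P60 hearing replicate 1 or 3 or P60 deaf replicate 2 was left out. Nor did Rgs7 or Rgs1 in 4 such fits each, which left out P60 hearing replicate 1 or 3, P60 deaf replicate 2 and, for Rgs7, P60 deaf replicate 1 or, for Rgs1, P60 deaf replicate 3. Rgs4 did not pass without any 1 of the P60 hearing libraries or with only the hearing libraries fitted. Without P32 hearing replicate 3, 3 of the 17 partners fell at P32, 2 rose and 5 fell at P60, and of the 14 other RGS genes 1 fell at P32 and 4 rose at P60. In that fit 2.0% of all genes fell at P32, and 8.84% rose and 9.55% fell at P60.

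For Ucn2, the other members of the CRF system did not pass at either age. Crhr2, its receptor, had 1.44 ± 0.832 and 1.91 ± 0.0897 CPM in P32 hearing and deafened rats (edgeR adjusted p = 0.628) and 2.20 ± 0.439 and 2.43 ± 0.0840 CPM at P60 (edgeR adjusted p = 0.920). Crhr1, the receptor for CRF and urocortin, had 4.07 ± 1.41 and 5.68 ± 2.35 CPM at P60 (edgeR adjusted p = 0.670), and the binding protein Crhbp 8.86 ± 7.51 and 8.45 ± 1.77 CPM (edgeR adjusted p = 0.993). Urocortin itself, Ucn, held 1 to 6 reads per group and was not tested.

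For Tmprss11f, 0 of 14 tested membrane serine proteases and inhibitors passed at P32. At P60, 1 rose, the epithelial protease St14 (matriptase), from 2.53 ± 0.383 to 4.72 ± 0.938 CPM (1.87-fold, edgeR adjusted p = 0.0396). It did not pass in 11 of 18 other fits: without a low-count filter, with the replicate block, and with 9 of the libraries left out in turn (all but P32 hearing replicate 3, P32 hearing replicate 2 and P60 deaf replicate 3). Its inhibitors Spint1 and Spint2 had edgeR adjusted p of 0.591 and 0.830 at P60, and Spint1 fell, with an edgeR adjusted p of 0.0408, when P32 hearing replicate 3 was left out. Of its relatives in the same gene cluster, Tmprss11d held 2 to 17 reads per group and Tmprss11e 2 to 5, and neither was tested. Tmprss11a, a close neighbour in the genome, stood at 0.909 and 0.744 CPM in hearing and deaf rats at P32 and at 0.556 and 0.271 CPM at P60 (log2 -1.03 at P60, edgeR adjusted p = 0.484), so its means in hearing rats were above those of Tmprss11f. Markers of surface epithelium did not pass: 0 of 5 tested at either age, with Krt5, Krt14 and Tp63 too low to test (0.0967 to 0.146, 0.0564 to 0.240 and 0.179 to 0.349 CPM), and the summed level of all 8 was 152 to 203 CPM in hearing animals and 213 to 247 CPM in the deafened ones at P32, and 227 to 252 and 186 to 219 CPM at P60. The sum was thus higher in every deafened library at P32 and lower in every one at P60. It consists mostly of Cdh1, at 166 and 207 CPM in hearing and deaf rats at P32 and 222 and 188 CPM at P60. At P60 the mean of Krt15 was also lower in deaf rats, while those of Epcam, Krt5, Krt8, Krt14, Krt18 and Tp63 were higher. The sum is thus no measure of the list as a whole, and the part of epithelium in the levels of Tmprss11f was not tested.

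For Mab21l3, 0 of 8 tested genes of its family passed at either age, and 3 fell at P60 without P32 hearing replicate 3, where 9.55% of all genes did. Cgas, the DNA sensor, had 1.07 ± 0.283 CPM in hearing animals and 1.73 ± 0.0108 CPM in the deafened ones at P60 (edgeR adjusted p = 0.192). For Tbx4, 1 of 10 tested T-box genes and partners rose at P32, Tbx18, from 72.6 ± 5.36 to 115 ± 8.37 CPM (1.58-fold, edgeR adjusted p = 0.0347; 0.00398 without P32 hearing replicate 3). It did not pass in 11 of 18 other fits, among them the fit of the 6 libraries of that age alone and those that left out any P32 deaf or P60 hearing library, P32 hearing replicate 1 or 2, or P60 deaf replicate 1 or 2. At P60 it had 79.4 ± 4.17 and 108 ± 7.39 CPM (edgeR adjusted p = 0.0527, and 0.00303 without P32 hearing replicate 3). Fgf10, the growth factor that acts with Tbx4 in limb and lung buds, fell at P60 from 132 ± 10.8 to 79.1 ± 5.0 CPM (1.66-fold, edgeR adjusted p = 0.00596) and passed in all 18 other fits. Tbx2, the gene next to Tbx4, had 4.54 ± 0.345 and 4.70 ± 0.385 CPM at P60 (edgeR adjusted p = 0.964). For Glipr2, 0 of 13 tested CAP-family and Beclin-complex genes passed at either age, and 3 rose at P60 without P32 hearing replicate 3, where 8.84% of all genes did. Glipr1 had 5.53 ± 0.233 and 7.12 ± 0.761 CPM at P60 (edgeR adjusted p = 0.670), and Becn1, which encodes Beclin 1, 102 ± 1.24 and 93.8 ± 6.08 CPM (edgeR adjusted p = 0.660).

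**Figure D3:**
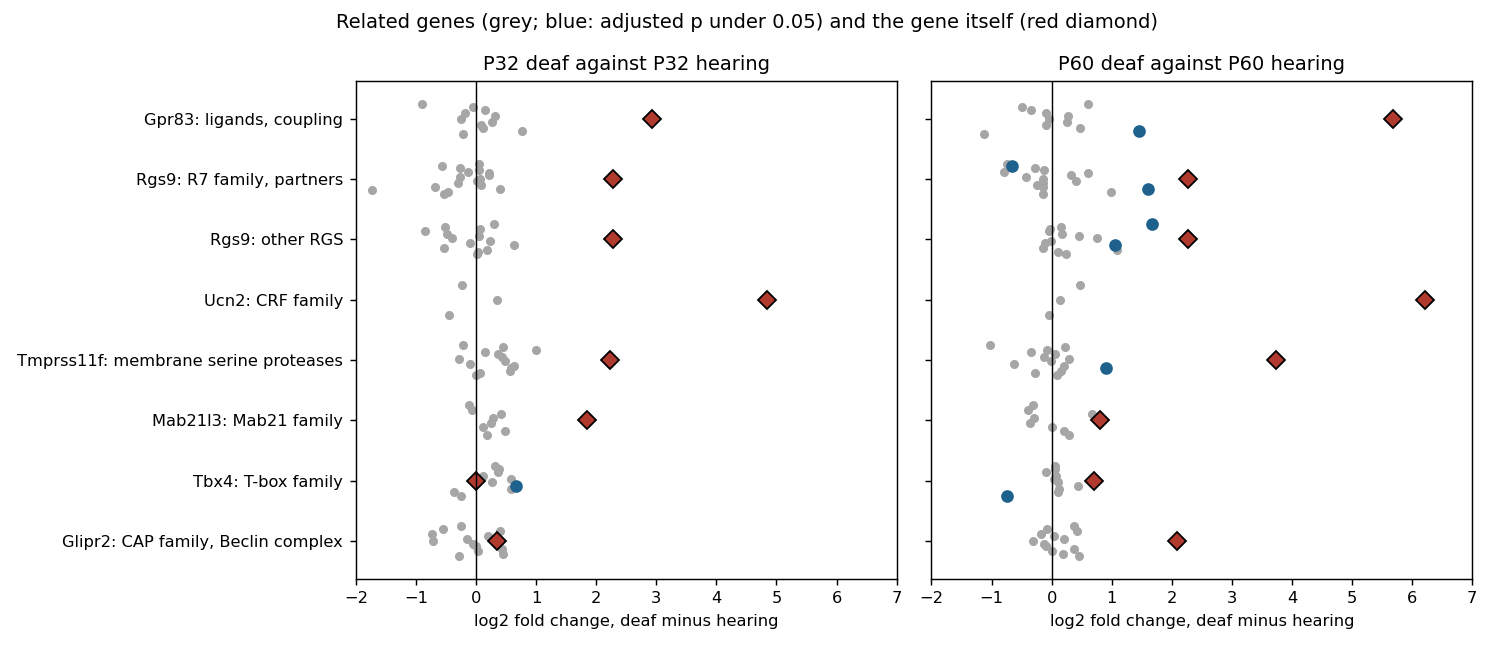
The log2 difference of deafened from hearing rats (horizontal axis) for each tested related gene, in rows by list, at P32 (left) and P60 (right); blue points are past an adjusted p of 0.05 and red diamonds are the 7 genes. The related genes lie between -1.72 and 1.68, and the diamonds of Gpr83, Ucn2 and Tmprss11f at P60 lie at 5.67, 6.21 and 3.74. The diamonds are genes chosen for large rises, so their distance from the other points is no result.

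The genes next to the 7 in the genome were looked up in the RefSeq annotation, with the nearest 2 protein-coding genes on each side. Of these 28 neighbours 19 were tested. None passed at P32, and 1 passed at P60: Col7a1, which encodes the collagen of anchoring fibrils and lies beside Ucn2, rose from 2.52 to 9.25 CPM (log2 1.88 ± 0.24 SE, edgeR adjusted p = 0.00164, past the threshold in 18 of 18 other fits). The neighbours of Gpr83, Panx1 and Ankrd49, had edgeR adjusted p of 0.997 and 0.698 at P60, and Gna13 beside Rgs9 had 0.672. Rgs9 overlaps a long noncoding RNA gene and Tbx4 an unnamed protein-coding gene in that annotation. Whether counting used the strand is not stated in the labels or headers, so reads of an overlapping gene could be counted with theirs.

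Over the 12 libraries, the genes whose log2 CPM followed each of the 7 most closely were found among 13995 genes by Pearson's r. These had a mean of at least 1 CPM in some group and a symbol that is no placeholder. These values describe libraries that differ by group, and the 12 points share their groups and their scaling. For Gpr83 they were the injury-induced transcription factor Atf3 (r = 0.992), Gas7 (0.992) and the intermediate filament Vim (0.989). For Ucn2 they were the phagocyte genes Lgals3 (0.986) and Gpnmb (0.986) and the metalloreductase Steap4 (0.985), and for Tmprss11f they were Steap4 (0.962), Ucn2 itself (0.962) and Laptm5, a lysosomal protein of blood cells (0.961). Rgs9 followed Tor3a (0.978), Sh3d19 (0.977) and the cholesterol exporter Abca1 (0.972). Mab21l3 followed Vcl, which encodes vinculin (0.963), Bcl2l11, which encodes the cell death protein Bim (0.959), and Bace2 (0.952). Glipr2 followed Klhl6 (0.977), the neuronal kinase gene Dclk1 (0.976) and Hormad2 (0.971). Tbx4 followed Mcc (0.931), Ptgdrl (0.904) and the neuropeptide PACAP gene Adcyap1 (0.898). Among the 7, the closest pair was Tmprss11f and Ucn2 (0.962), followed by Gpr83 and Ucn2 (0.961). Tbx4 had 0.342 to 0.470 with each of the others.

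**Figure D4:**
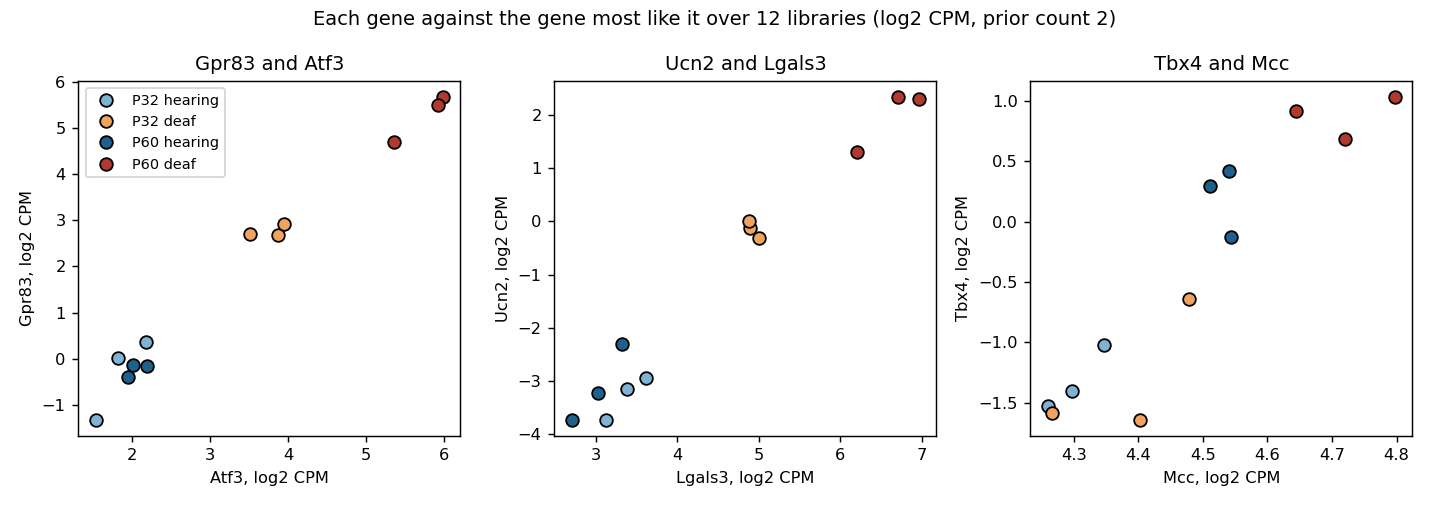
The log2 CPM of Gpr83, Ucn2 and Tbx4 (vertical axes) against that of the gene most like each (horizontal axes) in the 12 libraries, coloured by group. The points of Gpr83 with Atf3 and of Ucn2 with Lgals3 fall by group with the P60 deaf libraries at the top, whereas for Tbx4 with Mcc the P60 hearing libraries also lie above those of P32 hearing.

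Since Gpr83 is also known from regulatory T cells, the T cell markers are given beside it. Foxp3, the defining factor of those cells, had 4.30 CPM in P60 hearing and 3.62 CPM in P60 deaf rats (edgeR adjusted p = 0.865). The means of the other 3 were higher in deaf rats at that age, at 9.03 and 11.1 CPM for Ikzf2 (edgeR adjusted p = 0.695), 0.642 and 0.936 CPM for Il2ra (edgeR adjusted p = 0.566) and 0.129 and 0.239 CPM for Ctla4, which was too low to test. The 4 markers of regulatory T cells summed to 13.0 to 15.3 and 14.3 to 17.4 CPM. The T cell markers Cd3e, Cd3d, Cd3g and Cd2 were too low to test. At P60 they had 0.0905, 0.122, 0.124 and 0.352 CPM in hearing rats and 0.116, 0.316, 0.208 and 0.278 CPM in deaf rats. Cd8a had 0.488 and 0.789 CPM at that age (edgeR adjusted p = 0.590). None of the 3 tested regulatory T cell markers passed at P32 or P60. Of the T cell list Cd4, which rat macrophages carry as well, rose at both ages.

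The limits that hold all 7 genes are wide: a mean of at most 7.53 CPM in both hearing groups and a P60 fold of at least 1.64. Of the other tested genes, 704 lay inside them too. None had a larger P60 fold than Gpr83, which was chosen by that contrast, so nothing is read from this. Leaving out genes with only an ID or a placeholder symbol, the 5 with the largest fold were the growth factor Fgf5 (0.0387 to 1.34 CPM in P60 hearing and deafened rats, 32.2-fold), Atf3 (13.4-fold), the class I gene RT1.M2 (7.75-fold), the glutamate receptor Grm5 (0.848 to 6.36 CPM, 7.48-fold) and the growth factor Btc (1.99 to 13.7 CPM, 6.89-fold).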

How the data were processed

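Total RNA of whole spiral ganglion was sequenced after ribosomal RNA depletion, 12 libraries on 3 lanes each, per the labels' protocols. The authors deposited raw read counts per Ensembl gene ID, with lanes joined per the file headers, and a normalized signal per symbol for 11 libraries, which is the counts divided by 1 size factor per library. The aligner STAR 2.7.0b, Subread 1.6.3 with featureCounts, DESeq2 1.32.0, Trimmomatic, bcl2fastq 2.20 and SAMtools are listed without their roles, per the submitters' processing notes. Build, annotation and strandedness: not given in the sources used here.

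Multiplying the normalized values by median-of-ratios factors gave whole reads within 0.1 (largest deviation 0.0835), which paired all 21829 symbols with 1 ID each. Counts were fitted in R 4.3.3 with edgeR 4.0.16 (filterByExpr, TMM, quasi-likelihood test, 1 mean per group, 12 libraries), two-sided, Benjamini-Hochberg over 17789 genes, threshold 0.05. The fit was tested on simulated data. The SE is the log2 fold change divided by the square root of F. CPM are TMM-scaled, and correlations use a prior count of 2. The members and lists were chosen with earlier results of these data known. Named genes were the 7 members, their direct partners and closest paralogs, up to 3 past the threshold per list and comparison, the 3 most alike per member, and the 5 largest with the same profile. Placeholder symbols were left out of the most alike genes and of those named for the same profile. Of the partners, Pcsk1n, Fam237b, Rgs7bp, Crh, Ucn3 and Tbx5 had no matching symbol in the normalized table and were not analysed here. Promoter sequences and neighbours come from RefSeq (GRCr8), where all 7 symbols matched by name. The coordinates of the 2 printed promoters are those of GRCr8, and no other coordinates are given because the build of the count files is not known. Alternatives were RLE scaling, DESeq2 1.42.0, 2 other filters, the compared groups alone, a replicate block, each library left out, and the authors' values with pseudocounts of 1 and 5. Protein identity was planned and not analysed here. Figures used Python 3.11.15 and matplotlib 3.10.9. Replicates are labelled biological. The p-values set each difference against the spread between replicates, estimated from all 12 libraries with information shared across genes.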

Additional observations from a re-analysis of the deposited data

How the results depend on the processing

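The direction of each of the 7 genes' differences of deafened from hearing rats held in every setting run (20 alternatives per gene and comparison, 19 where a fit dropped the gene), except for Tbx4 at P32, which lay near 0 and ran from -0.43 to 0.27. With the authors' values and a pseudocount of 5 the log2 difference of Ucn2 was 2.30 at P32 and 4.09 at P60, against 4.84 and 6.21, since a pseudocount understates low genes. In the comparison of ages in hearing rats, where none of the 6 tested genes passed, 1 did under another setting, Tbx4 by DESeq2 (1.68, adjusted p = 0.00955).

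Counts of genes past the threshold depended on the setting. In P32 deaf against hearing the 56 genes became 452 by DESeq2 and 0 with only those 6 libraries fitted, where 2302 genes of the 12-library fit had unadjusted p under 0.05. With 1 library left out the count ran from 5 (P32 deaf replicate 2) to 641 (P32 hearing replicate 3). At P60 the 578 became 1298 by DESeq2 and 1940 with only the 2 groups fitted, and ran from 111 (P60 hearing replicate 1) to 3321 (P32 hearing replicate 3). In hearing rats by age the 13 became 160 by DESeq2, 21 with no low-count filter and 1 with only the 2 groups, and ran from 1 (P60 hearing replicate 1 or 3) to 41 (P32 hearing replicate 3). In deafened rats by age the 49 became 246 and 208 and ran from 6 (P32 deaf replicate 2) to 557 (P32 hearing replicate 3). The cause was not tested.

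Same-numbered libraries were at most weakly alike: the correlation of their deviations from the group mean was -0.03 to 0.16. Each P60 deaf library was most like the P32 deaf library of its own number (0.04, 0.15 and 0.16). In each other comparison some libraries were more like one of another number. Whether the numbers mark a pairing was not tested. With the number as a replicate block the counts were 63, 727, 11 and 46 in the same order. Low depth limits Ucn2 in hearing rats and Tbx4 at P32, which rest on 2 to 29 reads per group.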
